A study of Mus musculus with 18 samples.

Results

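Constitutive proteasome subunits and assembly factors were followed at the mRNA level in mouse NIH3T3 fibroblasts with and without extra TRIM21. They were chosen by gene symbol alone: Psm, then 1 letter from a to g, then digits, leaving out the catalytic and immunoproteasome beta subunits Psmb5 to Psmb10 and the interferon-inducible activators Psme1 and Psme2. The rule found 40 of the 24062 gene symbols in the count files, and the rule itself uses no measured value. They comprise 7 alpha subunits and 4 non-catalytic beta subunits of the core, 6 ATPases and 11 other subunits of the cap, 7 assembly factors, 3 activators or inhibitors, and 2 forms known from single tissues. Of the 40, 38 had enough counts to be tested.

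The proteasome is the protease that destroys most ubiquitin-tagged proteins in the cytosol and nucleus. Its core is a barrel of alpha and beta rings with the cutting sites sealed inside, and its cap binds the ubiquitin chain, removes it, unfolds the substrate with a ring of ATPases and feeds it into the barrel. Dedicated chaperones help the core and the base of the cap to assemble and are not part of the finished particle. TRIM21, an antibody receptor inside cells with ubiquitin ligase activity, marks what an antibody has bound, and the proteasome then degrades it, so these genes encode the last step of that route.

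The samples came from the parental line, labelled NIH3T3 and called WT here, and from the line labelled NIH3T3-mCherry-mTRIM21, called TRIM21 here, which carries mouse TRIM21 fused to the red fluorescent protein mCherry. Each line was electroporated with PBS, with bovine serum albumin (BSA, a protein that is not an antibody) or with an antibody (IgG), and RNA was taken 16 h later. Per the labels' protocols all samples, PBS included, received 2 pulses of 20 ms at 1400 V, and BSA and IgG were given at 7.5 µg. There were 3 samples in each of the 6 groups, identified by the numbers 10, 11 and 14 in their titles. The comparison of lines sets 1 derived line against its parental line, so the fusion and any other difference between the lines cannot be told apart. The promoter that drives the fusion, and whether the line is a clone, are not given in the sources used here.

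Promoters of proteasome genes are known as targets of NFE2L1, a factor that binds antioxidant response elements (core letters TGACNNNGC), and many carry the CCAAT box bound by NF-Y. RefSeq promoter windows of 300 bases, from 250 before to 50 after the transcript start on GRCm38.p6, were found for 33 of the 40 members, in 35 windows. Psma8, Psmb1, Psmb2, Psmc3, Psmd3, Psmd7 and Psmg2 had no entry. On both strands, TGACNNNGC was found in 4 of the 35 windows (11.4%), against 12.4% of 32851 windows of all genes. CCAAT was found in 13 of the 35 (37.1%), against 37.4% of all windows, and no member's window held both. These shares describe the letters in these windows and say nothing about binding by either factor. The stretches below show, 5′ to 3′ on the gene's strand, the 3 members with TGACNNNGC upstream of the start (capitals, printed as the reverse complement where the match is on the other strand), followed by 3 of the CCAAT members whose values are described further on (capitals mark CCAAT).
Psmd9, chr5:123228129-123228189, + strand: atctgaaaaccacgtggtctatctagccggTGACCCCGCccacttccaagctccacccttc
Psmd12, chr11:107479278-107479319, + strand: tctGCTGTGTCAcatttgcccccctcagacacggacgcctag
Psmc6, chr14:45329574-45329635, + strand: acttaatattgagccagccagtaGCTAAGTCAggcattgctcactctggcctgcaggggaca
Psma2, chr13:14613158-14613222, + strand: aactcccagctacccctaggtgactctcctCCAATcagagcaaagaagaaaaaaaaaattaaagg
Psma7, chr2:180042626-180042690, - strand: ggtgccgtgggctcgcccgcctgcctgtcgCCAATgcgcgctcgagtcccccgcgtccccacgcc
Psmc2, chr5:21785217-21785274, + strand: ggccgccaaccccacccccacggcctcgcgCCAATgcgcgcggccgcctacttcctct

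The libraries held 19509017 to 29766433 reads counted to genes, and the members took 0.461% to 0.658% of them. Tested members had from 158 counts (Psmg3) to 12711 counts (Psmd2) in a sample, so counting error is small beside the spread between samples for all but the rarest. Trim21 itself, which checks the line labels, stood at 1038 ± 63.6 CPM (counts per 1000000 counted reads, on TMM-scaled library sizes) in the TRIM21 line and 8.02 ± 1.13 CPM in WT (SD, n = 9 each), and its count ranges of 19900 to 32225 and 142 to 223 did not overlap. The lines differed by 7.02 on the log2 scale (SE 0.096, Benjamini-Hochberg adjusted p = 2.32e-19 from edgeR's quasi-likelihood test). All 8 fibroblast markers checked (Vim, Col1a1, Col1a2, Fn1, Lox, Pdgfrb, Thy1 and S100a4) had at least 2258 counts in every sample. Of the leukocyte genes, Ptprc had at most 5 counts and Itgam at most 2, while Cd68 had 104 to 210. The epithelial genes Epcam, Krt8 and Cdh1 had at most 1, 2 and 12 counts. The endothelial genes Kdr, Pecam1 and Cdh5 had at most 1, 9 and 43 counts, and the muscle genes Myod1 and Myog had 0 and Des at most 9.

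All members of the standard particle were expressed, and the core and cap groups had higher median levels than the assembly factors, although single members overlapped. To compare genes, levels are given as CPM per kilobase of merged exons (means over the 18 samples), and the length used matters: with the longest protein-coding transcript as the length, most values were higher and some orders changed. The median level of the alpha subunits was 57.6 with merged exons and 122 with the coding transcript. The corresponding medians were 81.7 and 158 for the beta subunits, 69.7 and 90.1 for the cap ATPases, and 35.4 and 71.4 for the other cap subunits. The assembly factors had medians of 18.8 and 20.7, and the activators and inhibitors 11.4 and 14.7. By both lengths the 2 core rings and the ATPases had higher medians than the other cap subunits, and these higher than the assembly factors.

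**Figure D1:**
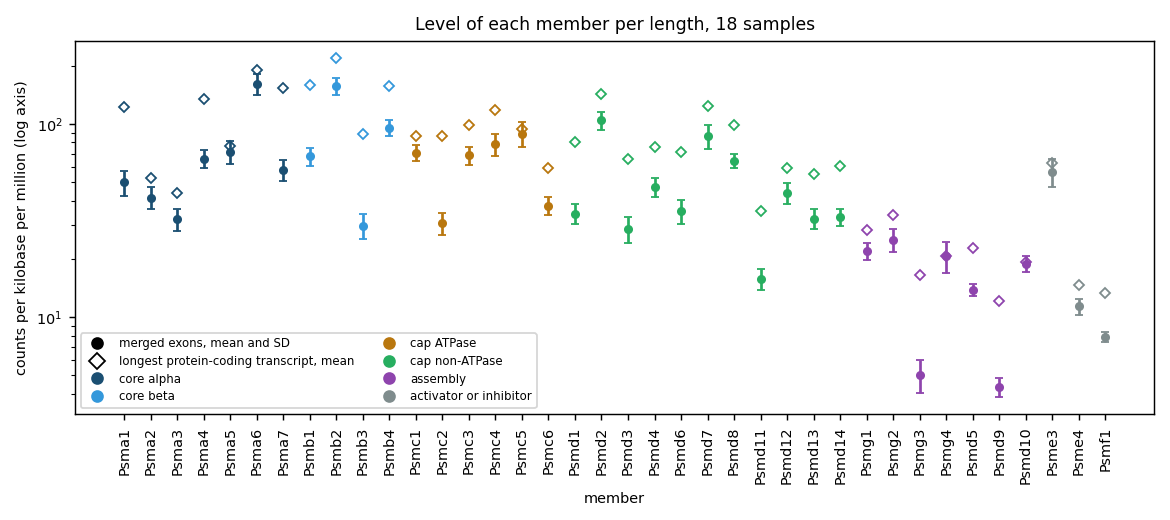
Level of each of the 38 tested members in CPM per kilobase on a log axis, as the mean over 18 samples, with filled circles and SD bars for merged exons and open diamonds for the longest protein-coding transcript. Core and cap subunits lie mostly above 30 and the assembly factors at 25.2 or below by merged exons.

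Within the core, Psma6, an alpha ring subunit, had the highest level of its ring at 160.5 and Psma3, another alpha ring subunit, the lowest at 32.1 CPM per kilobase. Among the structural beta subunits Psmb2 was highest at 156.6 and Psmb3 lowest at 29.6. By coding transcript the same members led and closed each ring, with 190.0 and 43.9 for Psma6 and Psma3 and 219.5 and 89.0 for Psmb2 and Psmb3. Part of Psmb3's sequence, 55.8% of its 50-base stretches, occurs in other annotated genes. Reads that align to several places were left out of the counts, so the level of Psmb3 is uncertain. The same holds for Psma5, with 55.4% shared. Smaller shares were found for Psma4 (31.5%) and for Psma3 (22%), the lowest of its ring.

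In the cap, Psmc5 had the highest ATPase level by merged exons (88.9) and Psmc2 the lowest (30.5), but by coding transcript Psmc4 was highest at 118 and Psmc6 lowest at 59.1, so the order of the ATPases depended on the length used. Psmd2, a scaffold of the cap's base to which substrate shuttles dock, led the non-ATPase subunits at 104.3, and Psmd11, a lid subunit, was lowest at 15.7. By coding transcript these were 142.2 and 35.3, and they remained first and last. Other annotated genes share 26.4% of the 50-base stretches of Psmd2 and 18.9% of those of Psmd11, so both levels are uncertain too. Among the assembly factors Psmg2, which pairs with Psmg1 as a chaperone of the alpha ring, was highest at 25.2, and Psmd9, a chaperone of the ATPase base, was lowest at 4.35. The nuclear activator Psme3 was at 56.4, while Psmf1, an inhibitor of the core, was at 7.90.

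Both tissue-restricted forms were silent or close to it. Psma8, the alpha subunit of the testis proteasome, had 0 counts in all 18 samples, and a count of 0 allows up to 3 counts per library. Psmb11, the beta subunit of the thymus epithelium, had 4 counts in all over the 18 samples. Neither entered a test.

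Across samples most members were high or low together, and the highest sample was a PBS sample of the TRIM21 line. The summed level of the 38 tested members was 5470.3, 6685 and 5256 CPM after PBS in the TRIM21 line for numbers 10, 11 and 14, then 5270.2, 5149.6 and 4595 CPM after BSA and 5022, 4955 and 5062.5 CPM after IgG. In WT it was 5172, 4983 and 4538.5 CPM after PBS, 5504, 5405 and 4724 CPM after BSA, and 4996, 4834 and 4629.5 CPM after IgG. The sample TRIM21 PBS 11 stood above all others. All 3 PBS samples of the TRIM21 line were above its 3 IgG samples, and the other pairs of treatments within a line overlapped. In bulk RNA, fewer cells expressing a gene and less of its RNA per cell cannot be told apart.

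TRIM21 PBS 11 was the highest of the 18 samples for 31 of the 38 members, while it was highest for 24.7% of all tested genes. In it 37 members lay above their own mean over the samples, against 47.4% of all genes. Of the remaining members, Psmb1, Psmb4, Psmg3, Psmg4 and Psmd10 were highest in WT BSA 10, and Psme4 and Psmf1 in other samples (these names were chosen after the values were seen). At the other end, 4 members lay above their mean in TRIM21 BSA 14, 5 in WT BSA 14, 6 in WT IgG 14 and 7 in WT PBS 14. The share of reads assigned to no gene feature was 15.4% in TRIM21 PBS 11, inside the range of 13.1% to 18.8% over the samples. The part of library quality in the high values of TRIM21 PBS 11 was not tested.

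**Figure D2:**
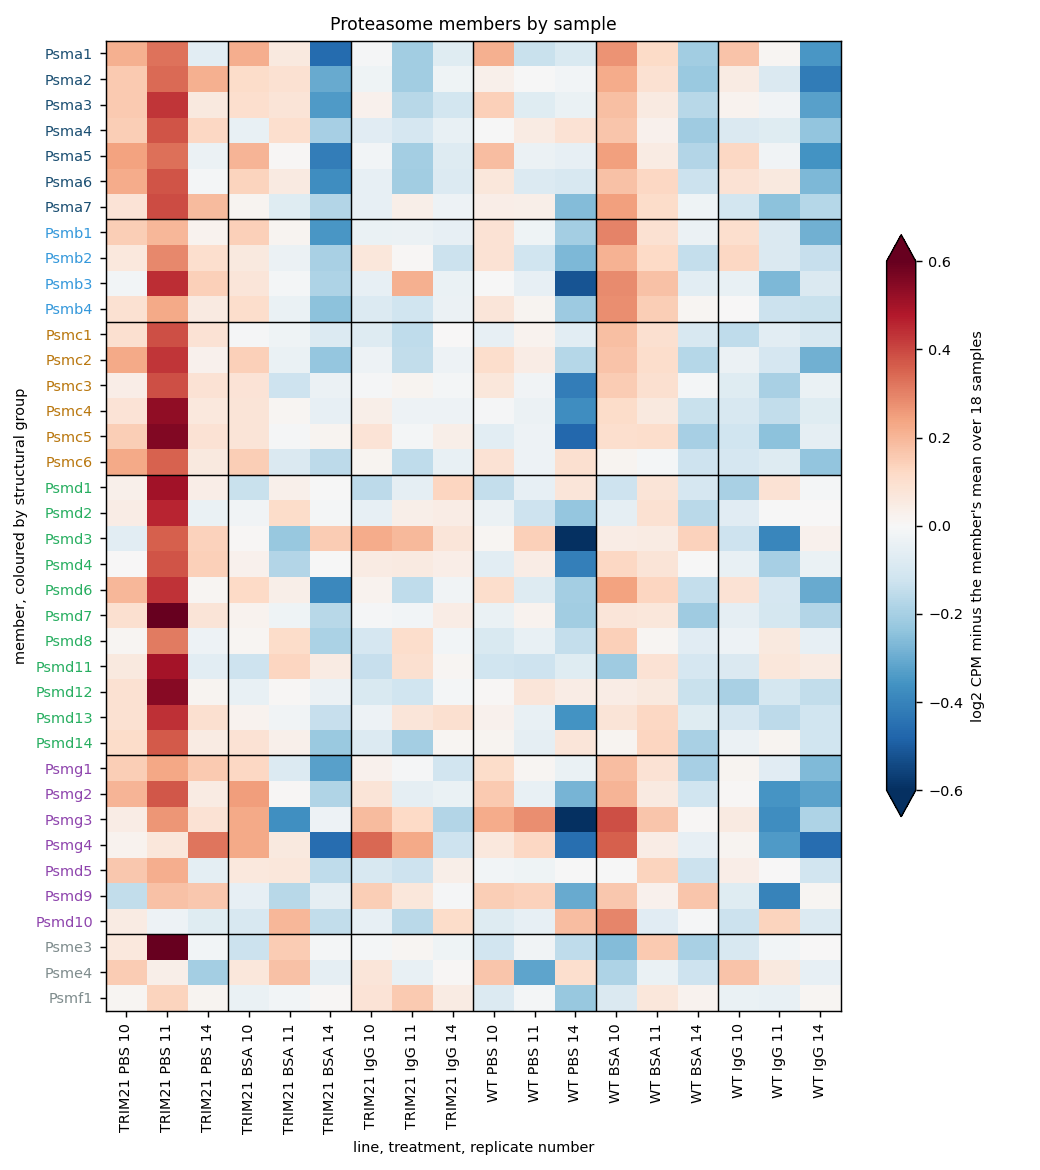
Each tested member (rows, coloured by structural group) in each of the 18 samples (columns), as log2 CPM minus the member's mean over the samples, with lines between the 6 groups of 3 and the colour scale ending at 0.6 in both directions. The column TRIM21 PBS 11 is high for 37 of 38 members and the columns numbered 14 outside the TRIM21 PBS group are mostly low.

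Samples numbered 10 also differed in level from those numbered 14. The mean deviation of the members was higher in the sample numbered 10 than in the one numbered 14 in 6 of 6 groups, by 0.021 to 0.227 log2. For the alpha subunits this held in 6 of 6 groups with 0.036 to 0.429, and for the ATPases in 6 of 6 groups, while it held in 5 of 6 for the beta subunits, the other cap subunits and the assembly factors. By summed CPM of all members the TRIM21 IgG group went the other way, with 5022 CPM for number 10 and 5062.5 CPM for number 14. By median deviation, number 11 was above number 10 in the TRIM21 PBS group, at 0.374 against 0.092. In the TRIM21 IgG group it was lowest at -0.032, and in the other groups it lay between numbers 10 and 14. These comparisons of numbers were not set beside those of all genes. The labels do not say what the number stands for. The members were about as variable as other genes: the median SD of log2 CPM over 18 samples was 0.164 (range 0.087 to 0.31), against 0.161 for the 8411 tested genes in the same range of levels, and it was 0.186 for the alpha subunits.

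**Figure D3:**
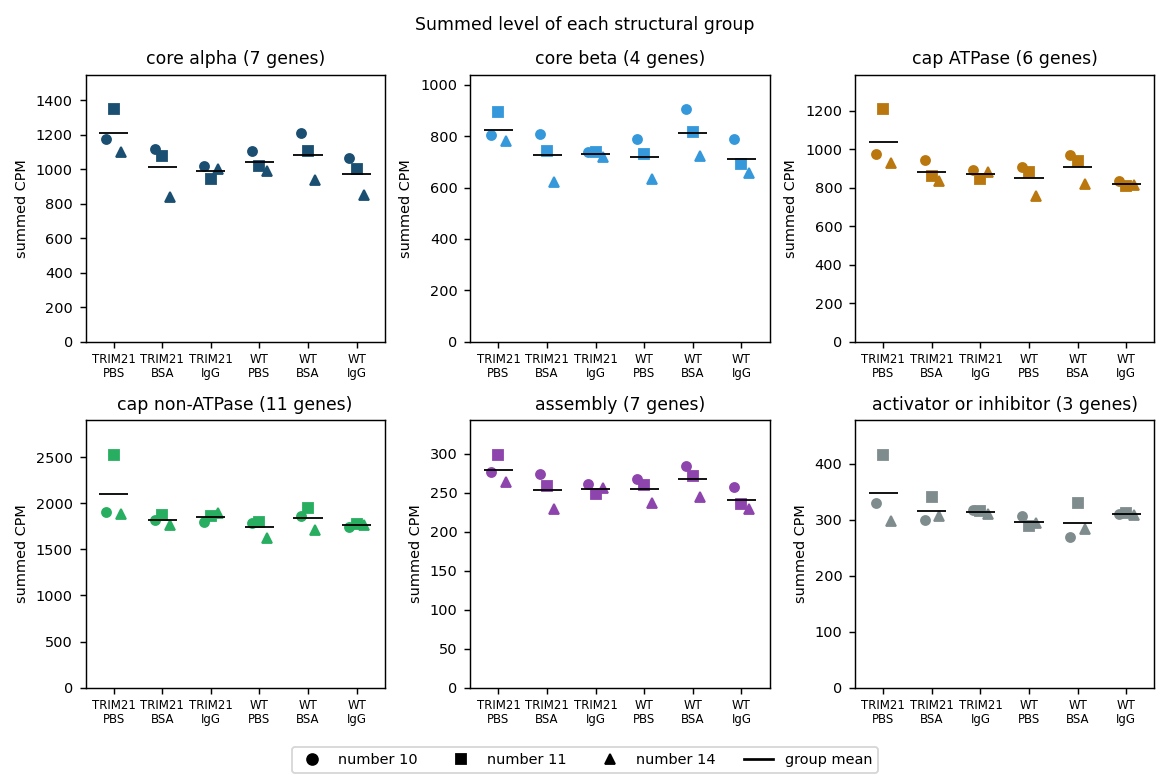
Summed CPM of each structural group in every sample, by line and treatment, with circles, squares and triangles for numbers 10, 11 and 14, a bar for the mean of 3, and axes that start at 0. Only the square of TRIM21 PBS, sample 11, stands clear of the rest in the cap groups, with 2524 CPM for the cap non-ATPase subunits against 1945 CPM in the next sample.

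Summed by group, the alpha subunits of the TRIM21 line were at 1208 ± 127 CPM with PBS, 1011 ± 150.1 CPM with BSA and 988 ± 39.6 CPM with IgG (SD, n = 3 each). In WT they were at 1040.5 ± 60.6, 1084 ± 138 and 974 ± 111 CPM. The beta subunits were at 826 ± 59.0, 725 ± 94.4 and 732 ± 12.4 CPM in the TRIM21 line and 717 ± 80.2, 814 ± 90.4 and 713 ± 67.7 CPM in WT, in the same order of treatments. In both core rings the 3 PBS samples of the TRIM21 line were above its 3 IgG samples and overlapped its BSA samples, while all 3 treatments overlapped in WT.

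The cap ATPases of the TRIM21 line were at 1038 ± 148 CPM with PBS, 881 ± 56.8 CPM with BSA and 872 ± 24.0 CPM with IgG, and at 849.96 ± 80.2, 909 ± 78.5 and 819 ± 13.3 CPM in WT. The other cap subunits were at 2105 ± 363, 1819 ± 54.1 and 1851 ± 53.6 CPM in the TRIM21 line and 1738.5 ± 98.2, 1842.5 ± 116 and 1763 ± 20.9 CPM in WT. The assembly factors had group means from 241 ± 14.5 CPM (WT IgG) to 279.8 ± 17.3 CPM (TRIM21 PBS). The largest SD in both cap groups was that of the TRIM21 PBS samples, which were above the IgG samples of that line for the ATPases and overlapped them for the other cap subunits.

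Between the lines, averaged over the 3 treatments, members were slightly higher in the TRIM21 line and none passed the test. The median log2 difference was 0.075, with 36 of 38 higher, against a median of 0.014 over all 12140 tested genes. No member had an adjusted p under 0.05 in edgeR's quasi-likelihood test, where 6.18% of all tested genes did, and limma-voom and DESeq2 also called 0. Some alternative fits, given in the last section, called Psmc5 alone. Among them was the fit without TRIM21 PBS 14, where 10.2% of all genes were called. Without adjustment 3 of 38 members (7.89%) had a p under 0.05, against 21.4% of all genes. Taking same-numbered samples, the median was 0.016 for number 10, 0.121 for number 11 and 0.084 for number 14, and it was 0.038 without TRIM21 PBS 11. The p-values measure only the spread between these samples, since the labels do not say that they came from separate cultures.

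By structural group the medians of that difference were 0.053 for the alpha subunits (7 of 7 higher), 0.029 for the beta subunits (3 of 4), 0.089 for the ATPases (6 of 6) and 0.113 for the other cap subunits (11 of 11). They were 0.035 for the assembly factors (6 of 7) and 0.088 for the activators and inhibitors (3 of 3). Without TRIM21 PBS 11 the alpha and beta subunits had medians of 0.014 and 0.010, with 6 of 11 core members higher, while 6 of 6 ATPases (median 0.058) and 11 of 11 other cap subunits (median 0.059) were still on the higher side. Among the samples numbered 10, 0 of 7 alpha and 0 of 4 beta subunits were higher, with medians of -0.021 and -0.078. There 5 of 6 ATPases and 9 of 11 other cap subunits were higher. For numbers 11 and 14 all 7 alpha and all 4 beta subunits were higher. None of these groups was tested as a group.

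Psmc5, an ATPase of the cap that helps pull substrates into the core, had the largest difference of all members. In the TRIM21 line it was at 136, 180.1 and 130.2 CPM after PBS, 129, 122 and 124 CPM after BSA, and 129.7, 121.5 and 126 CPM after IgG. In WT it was at 117, 120.0 and 88.4 CPM after PBS, 132, 132 and 107 CPM after BSA, and 113, 104 and 118 CPM after IgG. All 3 TRIM21 samples were above all 3 WT samples after PBS and after IgG, while after BSA the lines overlapped. The log2 difference over treatments was 0.215 (SE 0.074, 95% interval 0.059 to 0.372, edgeR quasi-likelihood, Benjamini-Hochberg adjusted p = 0.0991), from 115 ± 13.7 CPM in WT to 133 ± 18.2 CPM in TRIM21 (SD, n = 9 each). Psmc5 lies at chr11:106256154-106263120 on the + strand of GRCm38.

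The largest difference in each other group did not pass either. Psmd3, a scaffold subunit of the lid, had a log2 difference of 0.175 (SE 0.10, adjusted p = 0.324 in edgeR's quasi-likelihood test), and its lowest sample, WT PBS 14 at 83.6 CPM, was far below its WT median of 143 CPM. Without that sample the difference was 0.10. Psme3, the nuclear activator, differed by 0.164 (SE 0.084), and by 0.082 without TRIM21 PBS 11, in which it stood at 262 CPM against at most 183 CPM in any other sample. Psmg4, a chaperone of the core's rings, differed by 0.152 (SE 0.113), Psmb3 by 0.125 (SE 0.083) and Psma7 by 0.084 (SE 0.060), and without WT PBS 14 these were 0.099, 0.077 and 0.053. For all of these the 95% interval included 0.

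The line difference was also read treatment by treatment (the interactions, which test whether it depends on the treatment, are given further on and called no gene). After PBS the median over members was 0.23 with 37 of 38 higher, after BSA it was -0.082 with 7 of 38 higher, and after IgG it was 0.058 with 30 of 38 higher. Over all tested genes the medians were 0.005, -0.004 and 0.006. No member passed the edgeR quasi-likelihood test in any of the 3, where 1.71%, 0.848% and 0.774% of all tested genes did. With no adjustment 12 of 38 members (31.6%) had a p under 0.05 after PBS, against 19.8% of all genes, and 0 did after BSA or IgG, against 10.3% and 7.79% of all genes. DESeq2 called 1 member after PBS, Psmc5, where it called 3.71% of all genes, and limma-voom called 0.

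**Figure D4:**
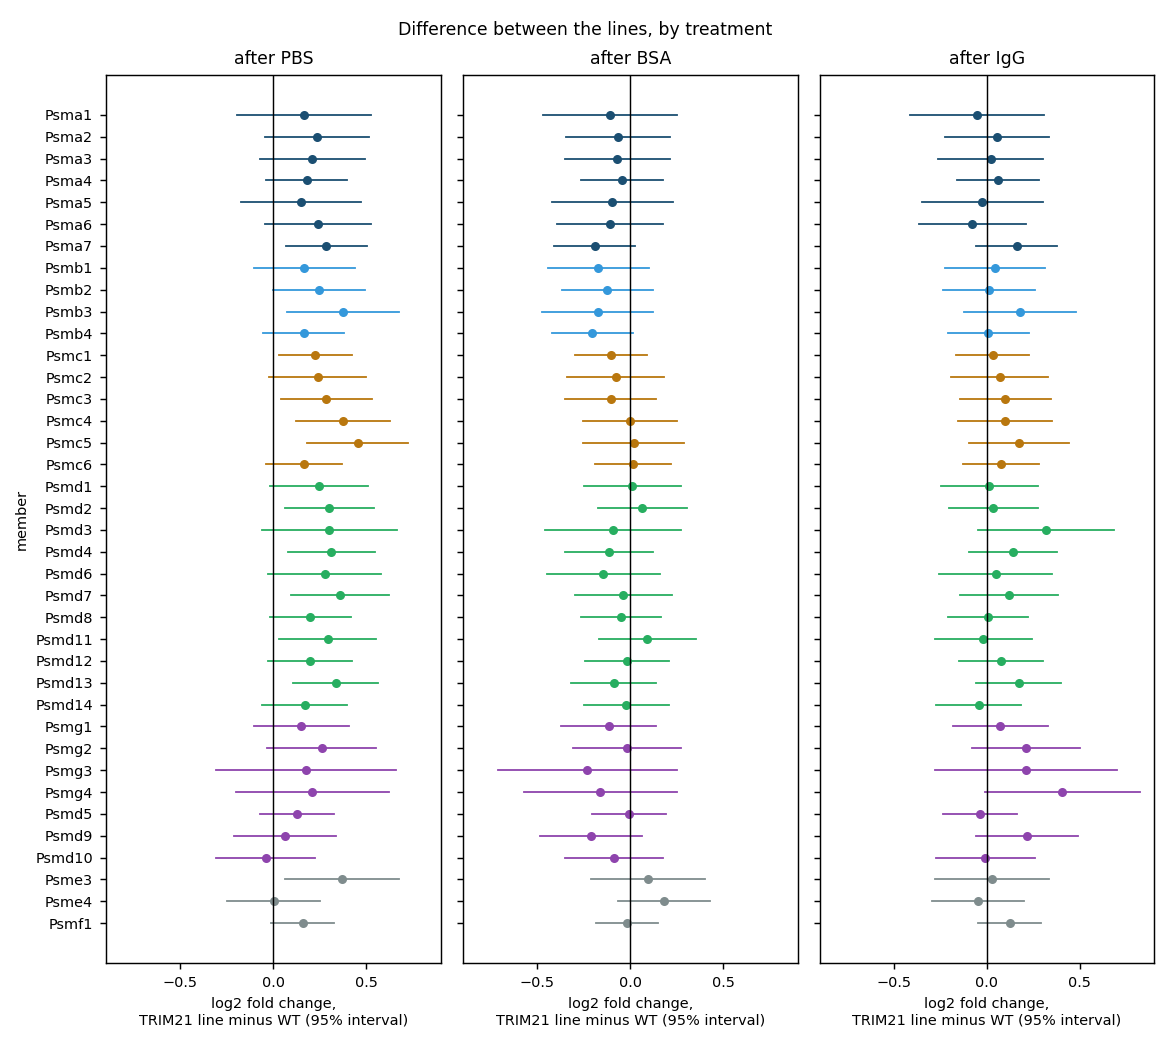
Log2 fold change between the lines (TRIM21 minus WT) of each tested member after PBS, BSA and IgG, with 95% intervals from the edgeR quasi-likelihood fit, coloured by structural group. Points lie to the right of 0 for 37 of 38 members after PBS and to the left for 31 of 38 after BSA, and no member passed the adjusted test.

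After PBS the ATPases (median 0.261) and the other cap subunits (median 0.292) differed most, with 0.209 for the alpha subunits, 0.206 for the beta subunits, 0.150 for the assembly factors and 0.158 for the activators and inhibitors. Psmc5 had the largest difference, 0.454 (SE 0.129, 95% interval 0.182 to 0.725, adjusted p = 0.087 in edgeR's quasi-likelihood test). Psmb3 followed among the core members at 0.374 (SE 0.143, adjusted p = 0.177), with 66.7, 91.7 and 74.5 CPM in TRIM21 and 67.3, 65.3 and 47.1 CPM in WT, so the lines overlapped. In 13 of 38 members all 3 TRIM21 samples were above all 3 WT samples, where 6.61% of tested genes were, and 0 had all 3 below, where 8.75% of genes had.

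A sample at each end stood out here. Without TRIM21 PBS 11 the median after PBS was 0.122, with 36 of 38 still higher. In that fit 1 member (2.63%) had an unadjusted p under 0.05 in place of 12, and the share of all genes was 7.05% in place of 19.8%. With each sample left out in turn, WT PBS 14 included, the median after PBS ran from 0.122 to 0.282. For same-numbered samples it was 0.080, 0.383 and 0.204 for numbers 10, 11 and 14. The sample WT PBS 14 had the highest share of reads assigned to no gene feature (18.8%). In it genes whose transcripts had under 45% GC deviated by a median of 0.165 log2 and those with over 55% GC by -0.312. With an offset for GC content the members' median after PBS was 0.241, against 0.23 without it, and the count of called members was 0 in both. The part of GC content or of library quality in the difference after PBS was not tested.

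After BSA and IgG the group medians were closer to 0 than after PBS, except that of the assembly factors after IgG. The 11 core members were all lower in the TRIM21 line after BSA (medians of -0.096 for alpha and -0.173 for beta), and the assembly factors were all lower too (median -0.116), while the ATPases stood at -0.039 and the other cap subunits at -0.038. When TRIM21 BSA 14, the sample with 4 members above their mean, was left out, the median of all members after BSA was 0.013 rather than -0.082. For same-numbered samples it was -0.058, -0.071 and -0.045 for numbers 10, 11 and 14. Psmd9, the base chaperone, was the only member whose 3 TRIM21 samples (30.3, 27.9 and 30.2 CPM) were all below the 3 WT samples (35.1, 31.9 and 35.2 CPM) after BSA, where 7.73% of tested genes were, and 0 members were all above, where 9.03% of genes were. After IgG, 9 of 38 members were higher in all 3 TRIM21 samples, where 8.95% of tested genes were. The median over members after IgG was 0.027 without WT IgG 14 and 0.099 without WT IgG 10. The 9 members were Psma7, Psmc3, Psmc4, Psmc5, Psmd3, Psmd4, Psmd7, Psmd13 and Psmf1. The assembly factors had the highest group median after IgG, 0.209, in which Psmg4 differed by 0.406 (SE 0.198, adjusted p = 0.648 in edgeR's quasi-likelihood test) with 14.4, 13.2 and 10.4 CPM in TRIM21 against 11.4, 8.93 and 8.23 CPM in WT.

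Antibody against PBS in the TRIM21 line sets samples in which TRIM21 could bind the delivered IgG against samples given no protein. The comparison of IgG with BSA in that line, described further on, uses the same IgG samples. The members' median log2 difference was -0.213, with 33 of 38 lower after IgG, against a median of 0.008 over all genes. None passed the edgeR quasi-likelihood test (smallest adjusted p = 0.724), and neither did any other gene (0%), nor did limma-voom or DESeq2 call a member. Unadjusted, 11 of 38 members (28.9%) had a p under 0.05, against 5.61% of all genes. In 17 of 38 members all 3 IgG samples were below all 3 PBS samples, where 5.9% of tested genes were, and in 0 all were above, against 3.06% of genes.

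**Figure D5:**
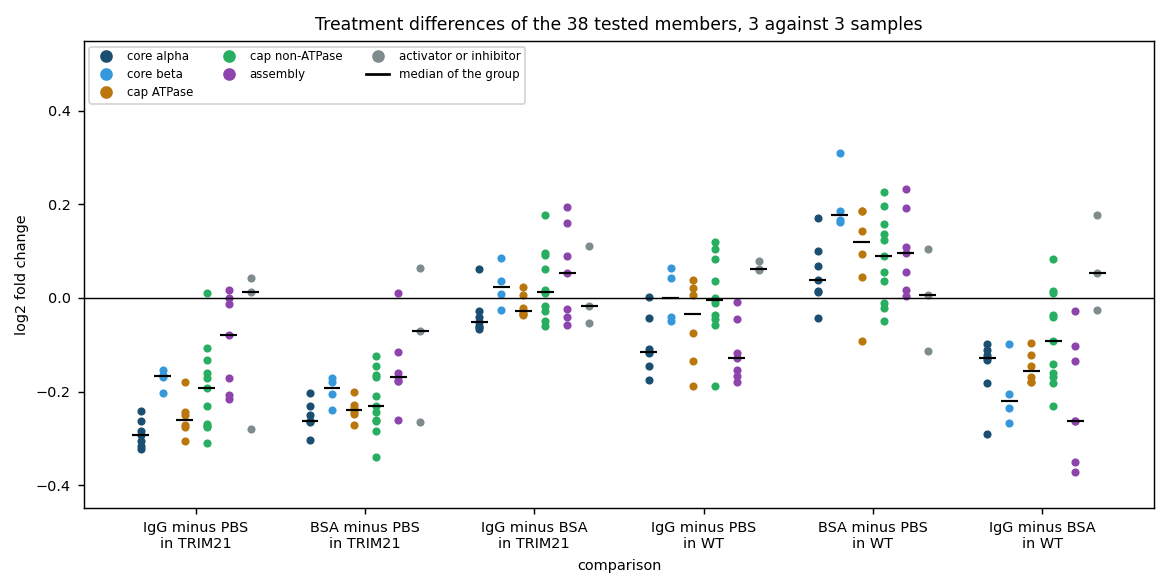
Log2 fold changes of the 38 tested members for the 6 treatment comparisons within a line (3 samples against 3), coloured by structural group, with a bar for each group's median. Alpha subunits and ATPases lie between -0.323 and -0.179 for IgG minus PBS in the TRIM21 line, while IgG minus BSA in that line lies between -0.066 and 0.194, and no member passed the adjusted test.

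Every core and ATPase member had a negative value: the alpha subunits had a median of -0.293 (range -0.323 to -0.242), the beta subunits -0.167 (-0.204 to -0.154) and the ATPases -0.261 (-0.305 to -0.179). The other cap subunits had a median of -0.193 with 10 of 11 lower, the exception being Psmd3 at 0.010. The assembly factors were nearer 0 with -0.080, 5 of 7 lower, and the activators and inhibitors had a median of 0.012.

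Psma2, an alpha ring subunit with 1 of the CCAAT promoters printed above, had 168, 191 and 175 CPM after PBS and 148, 131 and 148.5 CPM after IgG in the TRIM21 line. The 2 groups did not overlap. Its log2 difference was -0.323 (SE 0.133, 95% interval -0.602 to -0.044, adjusted p = 0.724 in edgeR's quasi-likelihood test), and it ran from -0.362 to -0.264 as each sample was left out. After BSA the same line gave 163, 161 and 122 CPM, which overlapped the IgG samples.

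Psmc2, the ATPase with the largest value, was at 179, 205 and 155.0 CPM after PBS and 149, 137.5 and 149 CPM after IgG, again with no overlap. Its difference was -0.305 (SE 0.124), and -0.198 without TRIM21 PBS 11. Psmd12, a lid scaffold whose promoter stretch with TGACNNNGC is printed above, was at 122.5, 168 and 117 CPM after PBS and 108, 106 and 114 CPM after IgG. Its difference of -0.31 (SE 0.108) was -0.128 without TRIM21 PBS 11, the sample at 168 CPM. Psme3 showed the same dependence, at 172, 262 and 163 CPM after PBS and 163, 166 and 162 CPM after IgG, with -0.281 (SE 0.145) from all samples and -0.034 without TRIM21 PBS 11. Psmb4, a structural beta subunit, differed by -0.204 (SE 0.104), and Psmg2 by -0.217 (SE 0.138, and -0.132 without TRIM21 PBS 11), from 49.9, 56.1 and 44.9 CPM to 45.8, 41.8 and 42.2 CPM.

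Without TRIM21 PBS 11 the members' median for IgG minus PBS was -0.090 with 32 of 38 lower, and 0 members had an unadjusted p under 0.05. All 11 core members and 6 of 6 ATPases were then still lower, with medians of -0.206 for alpha, -0.111 for beta and -0.124 for the ATPases, while the other cap subunits were at -0.049 and the assembly factors at -0.020. For same-numbered samples the median was -0.124, -0.415 and -0.067 for numbers 10, 11 and 14.

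BSA against PBS in the TRIM21 line shares its 3 PBS samples with the IgG comparison above and with the line difference after PBS, so the 3 sets of values are not independent. Members were lower after BSA by a median of -0.23, with 36 of 38 lower, and 9 had an unadjusted p under 0.05 (23.7%, against 3.68% of all genes). None passed the edgeR quasi-likelihood test (smallest adjusted p = 0.841), as with all tested genes (0%), and limma-voom and DESeq2 called 0. In 12 members the 3 BSA samples were all below the 3 PBS samples, where 2.72% of genes were, and in 0 all above, against 2.78% of genes. The medians were -0.262 for alpha, -0.192 for beta, -0.239 for the ATPases, -0.23 for the other cap subunits and -0.169 for the assembly factors. Without TRIM21 PBS 11 the members' median was -0.112, and 0 members had an unadjusted p under 0.05.

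IgG against BSA in the TRIM21 line, the comparison of an antibody with a protein that TRIM21 does not bind, gave a median of -0.017 over members, with 18 of 38 higher and values from -0.066 to 0.194. No member had an unadjusted p under 0.05, against 0.371% of all genes, and 0% of genes passed the edgeR quasi-likelihood test. Limma-voom and DESeq2 called 0 members. The alpha subunits had a median of -0.051, the beta subunits 0.022, the ATPases -0.027, the other cap subunits 0.012 and the assembly factors 0.053. In 3 members, Psmd4, Psmd9 and Psmf1, all 3 IgG samples were above all 3 BSA samples, where 1.82% of tested genes were, and 0 members had all 3 below, against 1.99% of genes. For Psma2 the difference between 163, 161 and 122 CPM after BSA and 148, 131 and 148.5 CPM after IgG lay inside the spread of the BSA samples. The median of all members was 0.064 without TRIM21 BSA 10 and -0.056 without TRIM21 BSA 14.

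In WT, IgG against PBS gave a median of -0.042 with 24 of 38 lower, and 4 members (Psma4, Psmc1, Psmc6 and Psmd12) had all 3 IgG samples below all 3 PBS samples, where 3.95% of genes did, and 0 had all 3 above, against 3.79%. The alpha subunits were at -0.115 and the assembly factors at -0.129, with all 7 assembly factors lower, while the beta subunits were at 0.001. IgG against BSA gave -0.133 with 33 of 38 lower, and BSA against PBS 0.095 with 32 of 38 higher. The assembly factors were at -0.263 for IgG minus BSA, in which Psmg4 had 11.4, 8.93 and 8.23 CPM after IgG and 14.5, 11.7 and 10.9 CPM after BSA, with an overlap. In 7 members the 3 IgG samples were all below the 3 BSA samples, where 7.18% of genes were, and in 0 all above, against 9.71%. Between BSA and PBS 0 members had separate groups in either direction, where 2.22% of genes were higher and 2.69% lower in all 3 BSA samples. Unadjusted, 0, 2 (5.26%) and 1 (2.63%) of the members had a p under 0.05 in these 3 comparisons, against 2.68%, 5.87% and 2.49% of all genes. Further, 0% of all genes passed the edgeR quasi-likelihood test in each, with 0 members called by limma-voom or DESeq2. With each sample left out in turn the medians ran from -0.109 to 0.019, from -0.228 to -0.078 and from 0.034 to 0.165.

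Whether a treatment acted differently in the lines is the interaction, which was fitted directly. For IgG minus PBS it was -0.172 in the median (33 of 38 lower in the TRIM21 line), for IgG minus BSA 0.134 (32 of 38 higher) and for BSA minus PBS -0.289 (37 of 38 lower). None of the members, nor any other gene (0%), passed the edgeR quasi-likelihood test in the 3 interactions, and limma-voom and DESeq2 called 0 members. Unadjusted, 0, 2 (5.26%) and 11 (28.9%) of the members had a p under 0.05, against 1.82%, 3.97% and 6.51% of all genes. Over all members the interaction for BSA minus PBS ran from -0.549 to 0.180. The lowest value among the alpha subunits was -0.475 with all samples and -0.385 without TRIM21 PBS 11. Psma7, an alpha ring subunit, had the value of -0.475 (SE 0.147, adjusted p = 0.651 in edgeR's quasi-likelihood test). It was at 186, 231 and 200.4 CPM after PBS and 178, 167 and 156 CPM after BSA in TRIM21, against 181, 179.9 and 147 CPM after PBS and 208.5, 189.9 and 173 CPM after BSA in WT. The 2 treatments did not overlap in TRIM21, with BSA lower, and overlapped in WT. Without TRIM21 PBS 11 the members' median interactions for IgG minus PBS and BSA minus PBS were -0.067 and -0.206, and 4 members (10.5%, against 2.62% of all genes) had an unadjusted p under 0.05 in the latter. The median for IgG minus BSA was 0.069 without TRIM21 BSA 14 and 0.236 without WT BSA 14.

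Genes that act with the proteasome were taken from a list, of which 22 were found in the count files and tested, while Paaf1 was not found. They include activators of proteasome gene transcription, the chaperone Pomp, ubiquitin receptors and shuttles, bound deubiquitinases and nuclear import factors. None of the 22 was called in any comparison by edgeR's quasi-likelihood test. Rad23b, a shuttle that carries ubiquitinated proteins to the cap, had the highest level, 429 ± 47.2 CPM or 74.8 CPM per kilobase. Between the lines 16 of 22 were higher, with a median log2 difference of 0.054 and 3 (13.6%) with an unadjusted p under 0.05, against 21.4% of all genes, and the smallest adjusted p in edgeR's test was 0.129. For IgG minus PBS in the TRIM21 line 18 of 22 were lower, with a median of -0.077 and 2 (9.09%) with an unadjusted p under 0.05, against 5.61% of all genes. Of the catalytic beta subunits that the symbol rule leaves out, Psmb5, Psmb6 and Psmb7 differed between the lines by 0.172, 0.087 and 0.033 and between IgG and PBS in TRIM21 by -0.138, -0.153 and -0.267, and none passed (smallest adjusted p = 0.482 and 0.724 in edgeR's quasi-likelihood test).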

How the data were processed

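RNA was measured in 18 samples of NIH3T3-derived cells, 6 groups of 3, grouped by the line and treatment in the labels. The deposited files held raw counts of reads per gene symbol, 1 table per sample. Per the labels' protocols the libraries were polyA-enriched and strand-specific. Per the submitters' processing notes, bcl2fastq 2.19.1.403, FastQC 0.11.5, STAR 2.5.1b, HTSeq 0.6.0, DESeq2 1.6.3 and the build mm10 were used, with no role or setting named, and the annotation and read length are not given in the sources used here. Lines of the tables that name no gene were left out of library sizes. Reads assigned to no gene feature made up 13.1% to 18.8% of the reads assigned to a gene, to none or to several. The line for alignments that are not unique made up 36.4% to 40.6% when it was added to these. That line may hold several entries for a read, so its share is not one of reads, and its entries were counted to no gene. A gene that shares sequence with other genes is therefore counted from its distinct part.

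The tests used edgeR 4.0.16 (R 4.3.3): filterByExpr (minimum count 10, minimum total 15) left 12140 of 24062 symbols, TMM factors ran from 0.977 to 1.03, and 1 quasi-likelihood model over the 18 samples gave each group its own mean. P-values were adjusted by Benjamini-Hochberg over all tested genes within each of 13 comparisons, with a threshold of 0.05. No list was tested as a set: counts and medians are given beside those of all genes. Positions, exon lengths and GC content came from GENCODE M21 on GRCm38, with 23708 symbols and all 40 members matched. Promoter windows came from RefSeq, and protein sequences are not used here. Alternatives were DESeq2 1.42.0 (size factors, and its Wald test), limma-voom (limma 3.58.1), 2 other filters, a GC offset, a replicate block, only the groups compared, other gene lengths and leaving out each sample. The coding-transcript length was added after seeing the data. The edgeR script was tested on simulated data.

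Named genes were those with an adjusted p under 0.05, and in each structural group those with the highest and lowest level, the largest line difference and the largest IgG minus PBS difference in TRIM21. In the genes that act with the proteasome the gene of highest level was named. The members and lists were chosen with earlier results of these data known.

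The titles' numbers 10, 11 and 14 recur in each group. The numbers were to count as pairing only where every same-number pair's deviations correlated by over 0.1, and 32 of 45 pairs did (range -0.323 to 0.578). All 3 pairs did for the lines after BSA (0.324, 0.289 and 0.445) and for IgG minus BSA in WT (0.232, 0.288 and 0.397), where a fit with the replicate block called 0 members, as without it. The numbers were not used as a block in the main fit. Pairs of samples within a group differed by more than counting noise, their chi-square over its degrees of freedom being 11.0 to 85.9.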

Additional observations from a re-analysis of the deposited data

How the results depend on the processing

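No member was called in any comparison by the main edgeR fit, nor under DESeq2 size factors, limma-voom, both other filters, a GC offset or a fit of only the groups compared. The exceptions all concern the lines. With the replicate number as a block (16 of 18 samples correlate best with their own number, a hint from the data and not the design), 1 member was called over treatments, Psmc5 (0.217, edgeR adjusted p = 0.0462), and 3 after PBS (Psmc4, Psmc5 and Psmd13), where 12% and 6.98% of all genes were. Psmc4 and Psmd13 are named after their values were seen. With block and GC offset together, 1 and 13 members were called, with 19.6% and 16.5% of all genes. The DESeq2 Wald test called 1 after PBS, Psmc5 (0.473, adjusted p = 0.0281), and 3.71% of all genes. Leaving out each sample, the count ran from 0 to 1 over treatments and from 0 to 5 after PBS, both maxima without TRIM21 PBS 14, where 10.2% and 8.35% of all genes were called. The median of IgG minus PBS in TRIM21 ran from -0.277 to -0.090 and that of BSA minus PBS from -0.274 to -0.112, the ends nearest 0 without TRIM21 PBS 11. The block changed no other call of a member, and after BSA it called 187 of all genes in place of 103 between the lines. The cause of these moves was not tested. Levels per length moved with the length used in 10 of 12 named cases. With 3 samples a group, the 95% interval of Psma2 for IgG minus PBS spanned -0.602 to -0.044, so differences of that size were not resolved after adjustment.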
